A study of Homo sapiens with 15 samples.

Results

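The 10 genes described here encode the calcium handling machinery of the cardiac sarcoplasmic reticulum: the release channels RYR2 and ITPR1, the junctional and luminal proteins TRDN, JPH2, CASQ2 and HRC, the calcium pump ATP2A2 with its inhibitor PLN and the modulator S100A1, and the sodium-calcium exchanger SLC8A1. They were chosen by name for their roles and found in the deposited tables through their Ensembl identifiers, and 10 of 10 were listed among 48777 genes in all. Their RNA levels were followed over days 0, 4, 9, 11 and 20 of cardiac differentiation to ask which parts of calcium release, uptake and extrusion appear first.

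In a heart muscle cell, calcium entering through the L-type channel opens ryanodine receptors on the sarcoplasmic reticulum, and the released calcium drives contraction. Triadin and calsequestrin hold calcium and the channel together inside the store, junctophilin tethers the store to the surface membrane, and relaxation follows when the calcium pump refills the store and the exchanger moves calcium out of the cell. Phospholamban restrains the pump until it is phosphorylated, and inositol trisphosphate receptors are the release channels of most other cell types and of the early embryonic heart.

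The libraries came from H1, an established human embryonic stem cell line, grown as a dish culture and sampled as 3 biological replicates on each day. The sample names of day 20 replicates 1 and 2 carry the plate labels 2 and 2_3, and what these labels stand for is not stated. The tests below treat these 2 libraries as separate replicates. All days carry the label of a dish coated with laminins LN-521 and LN-221, while the deposited sample table lists L521 alone for day 0. Day 0 cells were pluripotent cells in Nutristem medium. At confluence on day 4 the cells received the GSK3 inhibitor CHIR99021 in a basal medium with B27 without insulin, from day 7 the Wnt inhibitor IWP2 in the same medium, and from day 11 on CTS B-27. The labels do not say whether the day 4 cells were taken before or after CHIR99021 was added, a further label gives other days for these additions, and the study's methods list day 7 where the labels give day 9. All 15 libraries come from a single cell line, which limits them as a model of cardiac differentiation in general.

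Each library was RNA of a whole dish, so a larger share of muscle cells and more RNA per muscle cell cannot be told apart in any value below. Total counts lay between 11990302 and 33469703 with a median of 22867831. The summed level of 15 cardiomyocyte markers in TPM, the deposited transcript abundance unit, corrected for gene length and depth, was 45.3 to 60.0 on days 0 and 4, 597 to 2051 on day 9, 7732 to 29461 on day 11 and 8590 to 36496 on day 20, and on days 11 and 20 each of the 15 averaged at least 1 TPM. Day 20 replicate 2 stands apart. It had an RNA integrity number of 6.1, against 8.8 to 10.0 in the other 14 libraries, and held a read on 99.6% of 252 genes that were silent through day 11, at a median of 7.19 reads per kilobase of exon, against 0 in replicate 1 and 0.405 in replicate 3. At that rate such reads would make up 36.9% of its S100A1 count, 17.6% of its ITPR1 count, 17.0% of its CASQ2 count and at most 3.45% of the count of any other of the 10 genes. Most day 20 tests and ratios of the 10 genes quoted below are therefore given with and without it. So are the counts over the wider calcium lists for day 20 against day 4. The step of ATP2A2 from day 11 to day 20 is given only with it. A short gene without a symbol took 20.0% of all TPM in day 0 replicate 3 and 17.0% in day 9 replicate 1, which lowers the TPM of the other genes there but leaves counts and within-library ratios as they are.

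**Figure D1:**
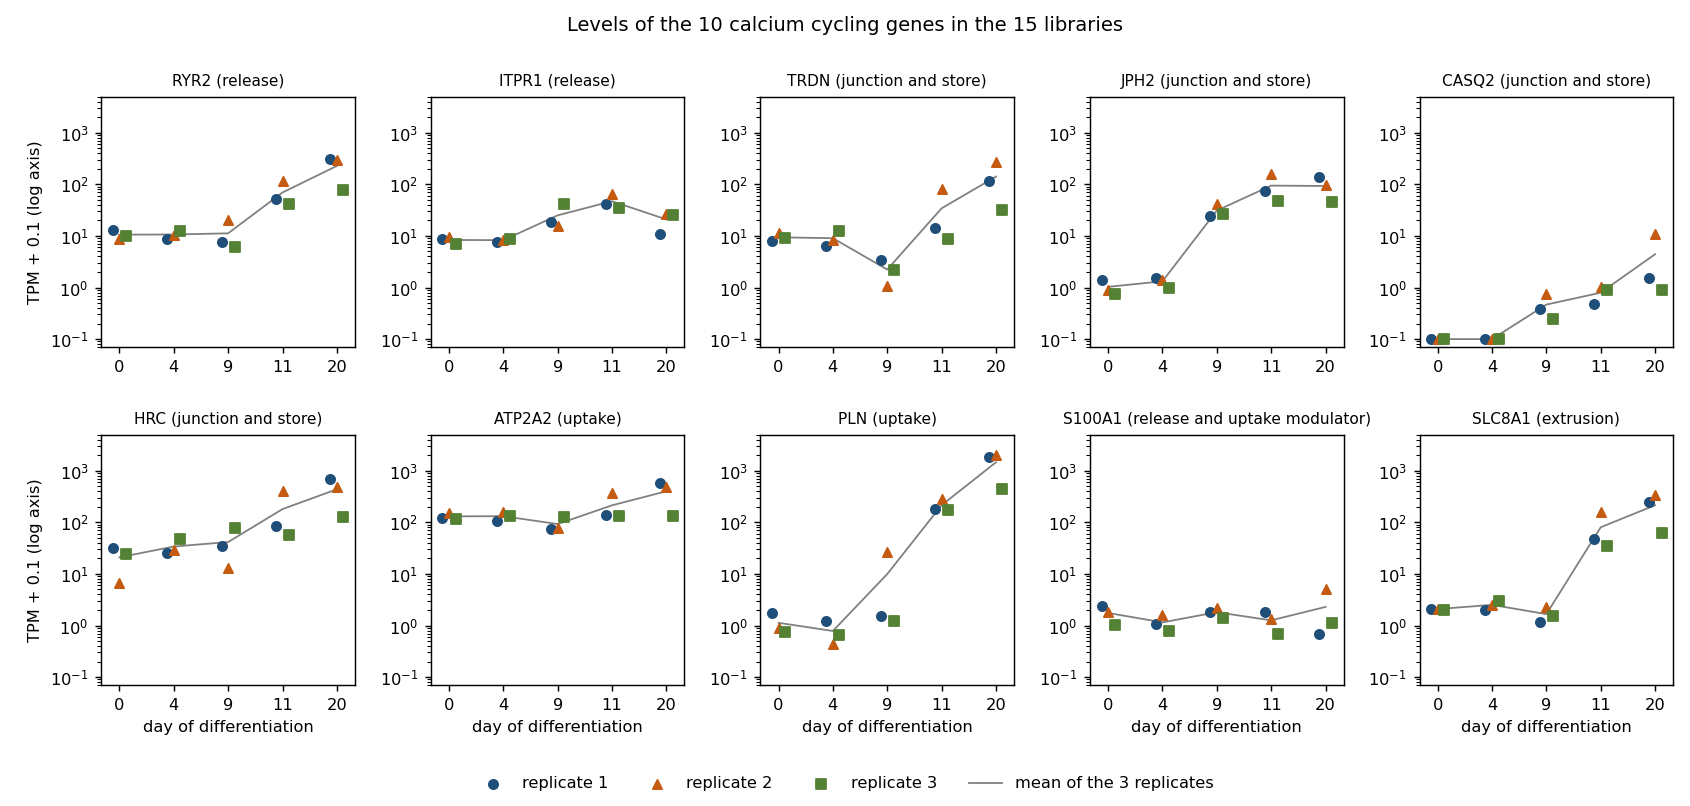
RNA level of each of the 10 genes in each of the 15 libraries, as TPM + 0.1 on a log axis, against the day of differentiation; symbols are the 3 replicates and the grey line joins the day means. JPH2 left its day 4 level by day 9, at 24.4 to 41.3 TPM, and SLC8A1 by day 11, at 34.4 to 158 TPM, while S100A1 stayed at or under 4.96 TPM in every library.

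Changes were tested between days with edgeR's quasi-likelihood test on the counts, with p-values adjusted over all genes tested, and a gene is said to have risen or fallen only at an adjusted p under 0.05. From day 0 to day 4, none of the 9 tested calcium genes passed, their median log2 fold change was -0.06 against -0.01 over all genes, and 0% of all genes passed, neither of 20964 tested in edgeR nor of 41029 in DESeq2, where 741 and 792 had an unadjusted p under 0.05. From day 4 to day 9, JPH2, ITPR1 and PLN rose and TRDN fell, 4 of 9 tested genes, where 49% of all genes passed, 24.3% of them upward and 24.7% downward. This share is near that of all genes. From day 9 to day 11, SLC8A1 alone passed among 10 tested, beside 2.39% of all genes (1.39% higher, 1% lower), and the median log2 fold change of the 10 was 1.79 against 0 over all genes. From day 11 to day 20, none of the 10 passed in edgeR, beside 1.55% of all genes (1.12% higher, 0.435% lower), although 4 had an unadjusted p under 0.05. DESeq2 called PLN higher and ITPR1 lower in that step. The median of the 10 in that step was 1.19 against 0.07.

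Measured from day 4, the order was the following. On day 9 JPH2 and ITPR1 were past the threshold, and PLN with them through 1 replicate. On day 11, 6 of 9 tested genes were higher than on day 4 (JPH2, PLN, SLC8A1, RYR2, ITPR1 and HRC), beside 46.9% of all genes that passed (23.1% higher, 23.8% lower), with a median log2 fold change of 2.47 against 0.04. On day 20, 8 of 10 were higher, TRDN and CASQ2 having joined, beside 30.8% of all genes that passed (17.6% higher, 13.3% lower), and the median was 3.91 against 0.11. Without day 20 replicate 2 the 10 genes again gave 8, while 10635 of 22281 genes passed in place of 6789 of 22024, and without day 4 replicate 2 it was 6 beside 3027 of 24726. The same 3.91 is the median when CASQ2, which had no read on day 4, is set at its lower bound. ATP2A2 and S100A1 did not pass against day 4 on any day. These comparisons share the day 4 libraries, so they are not independent of one another, and a gene past the threshold on 1 day and not on the day before is not thereby shown to differ between those days.

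**Figure D2:**
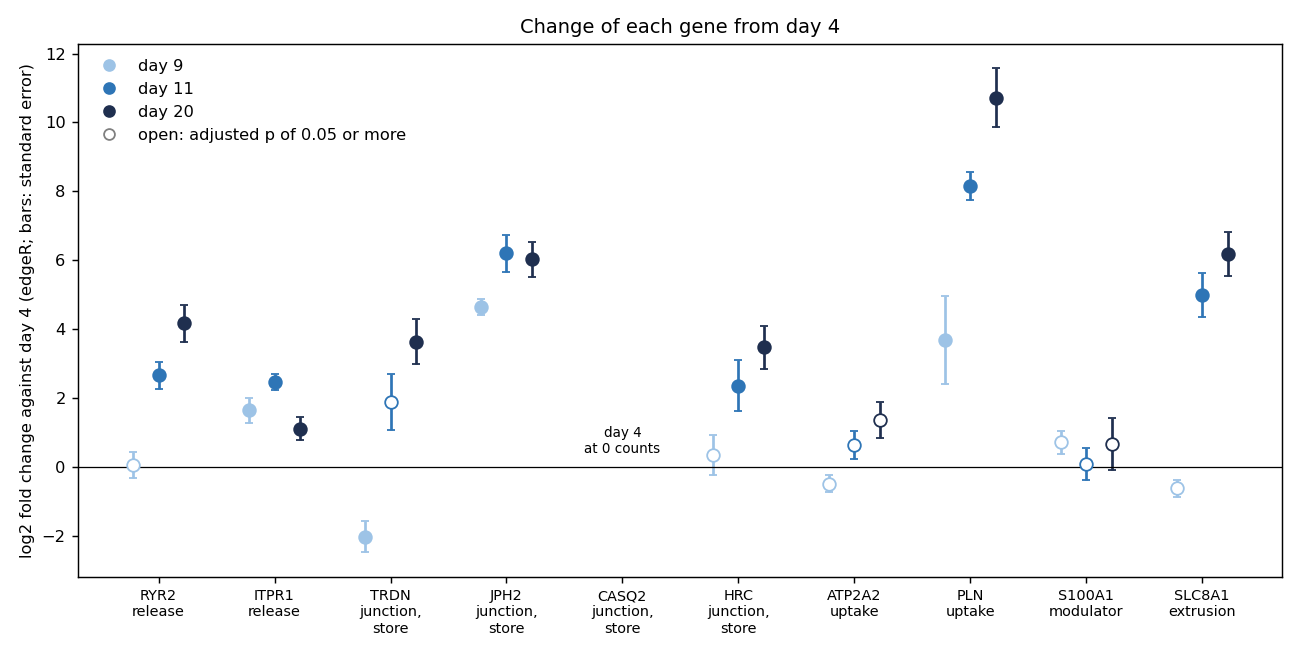
Log2 fold change of each gene on days 9, 11 and 20 against day 4 by edgeR, with bars of 1 standard error; filled points have an adjusted p under 0.05. CASQ2 is not drawn because it had no read on day 4. JPH2 was at 4.65 by day 9 whereas RYR2 was at 0.05, and by day 20 PLN reached 10.72.

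Of the release channels, RYR2, the cardiac ryanodine receptor (ENSG00000198626, chr1:237042184-237833988, plus strand, GRCh38), was low until day 9. Its TPM was 13.1, 8.7 and 9.67 on day 0 and 8.78, 10.4 and 12.5 on day 4. Day 9 gave 7.44, 20.0 and 5.96, so that a single library lay above the earlier days. On day 11 the values were 52.2, 115 and 41.1 and on day 20 they were 306, 299 and 78.3, and the ranges of days 9, 11 and 20 overlapped only between the last pair. The log2 fold change from day 4 was 0.05 on day 9 (SE 0.39, edgeR adjusted p = 0.919), 2.66 on day 11 (SE 0.39, adjusted p = 0.00115) and 4.18 on day 20 (SE 0.53, adjusted p = 0.002; 4.12 without day 20 replicate 2, adjusted p = 0.00164). The step from day 9 to day 11, 2.62 (SE 0.54), missed the threshold at an adjusted p of 0.0591 and passed it without day 9 replicate 2, at 3.25 and 0.0252. Without that replicate RYR2 was also lower on day 9 than on day 4, by a log2 fold change of -0.56 (adjusted p = 0.0317).

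ITPR1, the type 1 inositol trisphosphate receptor (ENSG00000150995, chr3:4493345-4847506, plus strand), was already higher on day 9, and lower in each day 20 library than in any of day 11. It stood at 8.66, 9.23 and 6.92 TPM on day 0, at 7.46, 8.34 and 8.71 on day 4, and at 18.9, 15.5 and 40.6 on day 9, where every library was above all 6 earlier ones. On day 11 it reached 42.0, 64.4 and 34.6 TPM, and on day 20 it was at 11.0, 26 and 25.4. ITPR1 rose from day 4 to day 9 (log2 fold change 1.65, SE 0.36, edgeR adjusted p = 0.00691, but 0.0824 without a filter on low counts) and was still higher on day 11 than on day 4 (2.47, SE 0.23, adjusted p = 5.27e-05). The difference of -1.32 from day 11 to day 20 (SE 0.39) did not pass in edgeR (adjusted p = 0.134; -1.35 and 0.155 without day 20 replicate 2) and passed in DESeq2 (-1.45, adjusted p = 0.019). Against day 4, day 20 was higher by 1.12 (adjusted p = 0.0375; 1.09 and 0.0369 without replicate 2), a call that was lost without any single day 4 replicate (adjusted p of 0.139 to 0.165) or without day 20 replicate 3 (0.0955). An antisense gene covers 1.4% of the exon bases of ITPR1, and whether reads were counted by strand is not given in the sources used here.

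Within a library the ratio of RYR2 to ITPR1 is free of scaling between libraries. It was 1.51, 0.943 and 1.39 on day 0 and 1.17, 1.25 and 1.43 on day 4. Later it was 0.397, 1.29 and 0.149 on day 9, 1.24, 1.79 and 1.19 on day 11, and 27.7, 11.5 and 3.08 on day 20. RYR2 transcripts thus outnumbered those of ITPR1 in all 6 libraries of days 11 and 20, and the 2 days did not overlap. They already did so in each day 4 library, and the ratios of days 4 and 11 overlapped. The geometric mean of the ratio was 7.19-fold higher on day 20 than on day 11 (log2 difference 2.85, SE 0.94; 2.74 without day 20 replicate 2, 3.69 without replicate 3 and 2.11 without replicate 1), with an exact permutation p of 0.1, the smallest that 3 against 3 libraries can give, and an adjusted p of 0.2 over the 10 ratio tests. From day 9 to day 11 the ratio was 3.26-fold higher with overlapping groups (log2 difference 1.70, 2.51 without day 9 replicate 2 and 0.95 without day 9 replicate 3, exact permutation p = 0.3, adjusted 0.429).

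At the junction and in the store, JPH2, junctophilin 2, the protein that holds surface membrane and sarcoplasmic reticulum side by side (ENSG00000149596, chr20:44106590-44187188, minus strand), had the largest change of the tested genes by day 9. On days 0 and 4 it lay between 0.651 and 1.46 TPM, with 15 to 72 reads per library. On day 9 it was at 24.4, 41.3 and 27.0 TPM, so that each library was far above all earlier ones. Day 11 gave 75.7, 160.0 and 47.7 and day 20 gave 137, 95.3 and 46.2, and these 2 days overlapped. JPH2 rose from day 4 to day 9 by a log2 fold change of 4.65 (SE 0.24, edgeR adjusted p = 4.71e-06), the call held in all 15 alternative fits, and their estimates ran from 3.82 to 5.40. The further difference from day 9 to day 11 was 1.57 (SE 0.42, adjusted p = 0.113) and that from day 11 to day 20 was -0.15 (SE 0.52, adjusted p = 0.923; -0.04 and 0.981 without day 20 replicate 2). By day 9 the mean of JPH2 was 32.6% of its highest day mean. The share was 78.1% for S100A1, 53.2% for ITPR1, 23.1% for ATP2A2, 9.47% for HRC, 8.5% for CASQ2 (32.4% without day 20 replicate 2), 4.89% for RYR2, 1.51% for TRDN, 0.728% for SLC8A1 and 0.675% for PLN.

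TRDN, triadin, which anchors calsequestrin to the ryanodine receptor (ENSG00000186439, chr6:123216339-123637189, minus strand), took a different path. Its TPM was 7.86, 11.1 and 8.96 on day 0 and 6.2, 8.32 and 12.3 on day 4. On day 9 it was 3.29, 0.984 and 2.12, below all 6 earlier libraries, and TRDN fell from day 4 to day 9 by 2.02 on the log2 scale (SE 0.46, edgeR adjusted p = 0.00796, but 0.0763 without a filter on low counts and 0.0623 with all 15 libraries in 1 fit). On day 11 it stood at 14.2, 79.9 and 8.53 TPM and on day 20 at 117, 275 and 31.8, with the highest value of each day in replicate 2. The difference from day 9 to day 11, 3.9 (SE 0.94), had no overlap between the days and an adjusted p of 0.09. On day 20 TRDN was higher than on day 4 by 3.64 (SE 0.66, adjusted p = 0.00692; 3.00 and 0.00533 without day 20 replicate 2). The ratio of TRDN to RYR2 was 0.45, 0.0538 and 0.366 on day 9, 0.274, 0.694 and 0.21 on day 11 and 0.382, 0.921 and 0.407 on day 20, and the days overlapped. The successive log2 differences were 0.72 (-0.25 without day 9 replicate 2) and 0.62 (0.21 without day 20 replicate 2), with an exact permutation p of 0.7 and 0.4 (adjusted 0.778 and 0.5).

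CASQ2, cardiac calsequestrin, the main calcium buffer of the store (ENSG00000118729, chr1:115700021-115768884, minus strand), had the lowest mean TPM of the 10 genes on days 0 to 11 and the next to lowest on day 20. It had no read in any of the 6 libraries of days 0 and 4, where 3 counts over the day 4 group would correspond to 0.038 CPM (counts scaled to the library total). Day 9 held 4, 10 and 3 reads (0.292, 0.661 and 0.147 TPM) and day 11 held 6, 13 and 14 reads (0.369, 0.904 and 0.808 TPM). On day 20 there were 25, 116 and 10 reads, or 1.45, 10.7 and 0.811 TPM, and the library that stands apart was the high one. Pooled over its libraries, day 20 was at least 65.2-fold higher than day 4, at least 20.3-fold from replicates 1 and 3 alone, while day 11 was at least 13-fold and day 9 at least 6.89-fold higher; these bounds cover counting error only. edgeR called day 20 against day 4 (adjusted p = 0.0167, 0.00496 without day 20 replicate 2, 0.0516 without day 4 replicate 2). CASQ2 was too low for the filter in the day 9 and day 11 comparisons with day 4. From day 11 to day 20 its log2 fold change was 2.29 (SE 0.93, adjusted p = 0.267) and 0.72 without replicate 2 (adjusted p = 0.543).

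CASQ1, the calsequestrin best known from skeletal muscle and no member of the 10, was the more abundant of the pair on day 20. It lay at 2.27, 9.21 and 1.25 TPM on day 11 and at 26.3, 56.6 and 6.71 on day 20, above CASQ2 of the same library each time. CASQ1 rose from day 4 to day 20 by a log2 fold change of 3.48 (SE 0.77, edgeR adjusted p = 0.0142; 2.91 and 0.0164 without day 20 replicate 2), a call that was lost without any single day 4 replicate (0.0531 to 0.056). The summed level of the 9 skeletal muscle markers listed was 228, 538 and 24.9 TPM in the 3 day 20 libraries, of which ACTA1, an actin that heart muscle also makes, gave 217, 475 and 12. The skeletal muscle regulator MYOD1 was at 0, 8.35 and 0.499 TPM and MYOG at 1.05, 5.51 and 1.32. The part of these markers in the CASQ1 level was not tested.

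HRC, the histidine-rich calcium binding protein of the store lumen (ENSG00000130528, chr19:49151198-49155396, minus strand), was present from the start and varied widely between replicates. It was at 32.2, 6.45 and 24.1 TPM on day 0, 25.7, 28.9 and 47.0 on day 4 and 34.8, 13.2 and 76.4 on day 9, and these 3 days overlapped. Day 11 gave 84.5, 401 and 56.6 and day 20 gave 707, 478 and 129. HRC was higher than on day 4 by 2.36 on day 11 (SE 0.74, edgeR adjusted p = 0.036) and by 3.47 on day 20 (SE 0.62, adjusted p = 0.00643; 3.56 and 0.00605 without day 20 replicate 2). The day 11 call was lost without any single day 4 replicate (adjusted p of 0.0709 to 0.111), whereas the day 20 call held in all 15 alternative fits.

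**Figure D3:**
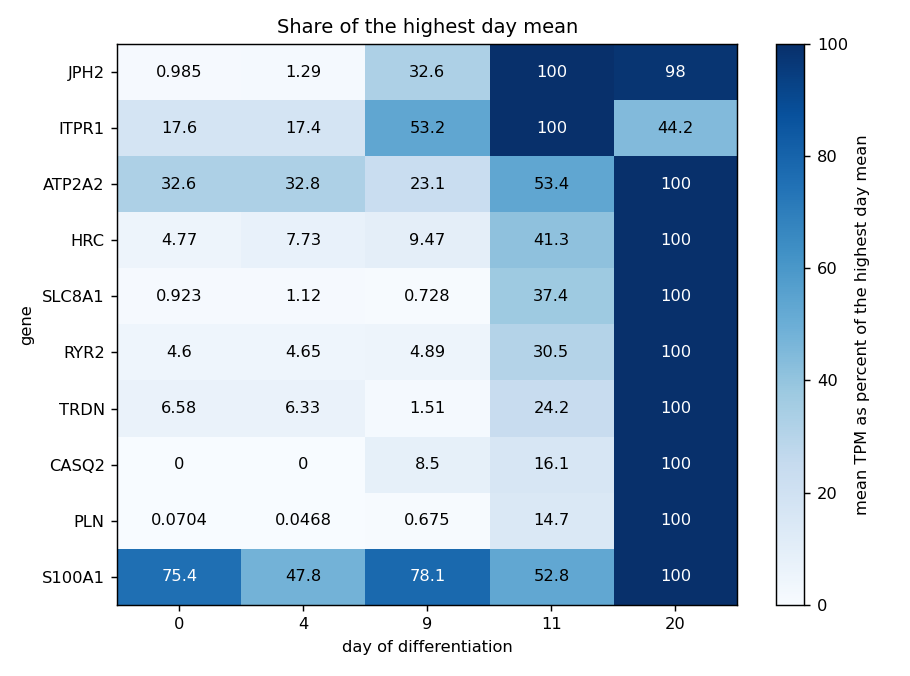
Mean TPM of each gene on each day as a percent of its own highest day mean (n = 3 libraries per day). JPH2 and ITPR1 had their highest mean on day 11 and the other 8 genes on day 20; without day 20 replicate 2 the CASQ2 share on day 11 is 61.3% in place of 16.1%, and S100A1 has its highest mean on day 9.

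ATP2A2, the SERCA2 calcium pump (ENSG00000174437, chr12:110280756-110351093, plus strand), serves uptake and had the highest mean TPM of the 10 genes on days 0, 4 and 9. Its TPM was 123, 155 and 114 on day 0 and 105, 160.0 and 130 on day 4. On day 9 it was 75.5, 77.3 and 125, on day 11 136, 373 and 133, and on day 20 585, 483 and 135. Day 20 replicate 3 was thus within the range of days 0 and 4. No step passed: the log2 fold change was -0.48 from day 4 to day 9 (SE 0.25, edgeR adjusted p = 0.142), 1.14 from day 9 to day 11 (SE 0.44, adjusted p = 0.244) and 0.76 from day 11 to day 20 (SE 0.62, adjusted p = 0.605). From day 4 to day 20 it was 1.37 (SE 0.52, adjusted p = 0.0843; 1.38 and 0.0813 without day 20 replicate 2), and without day 20 replicate 3 it was 1.72 with an adjusted p of 0.0169. Without day 9 replicate 3 the gene was lower on day 9 than on day 4, by -0.76 (adjusted p = 0.00637).

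PLN, phospholamban, the small membrane protein that inhibits the pump (ENSG00000198523, chr6:118548296-118561716, plus strand), reached the largest fitted fold change of the 10. On days 0 and 4 it lay between 0.336 and 1.66 TPM, from 4 to 23 reads per library. Day 9 gave 1.42, 27.0 and 1.15 TPM, the high library being replicate 2. That library had the highest cardiomyocyte marker sum of the day (2051 TPM against 949 and 597). It also had the highest sums of fibroblast and mesenchyme markers (2379 against 791 and 904) and of endoderm and liver markers (1327 against 565 and 455). On day 9, 6 of the 10 genes were highest in replicate 2. ITPR1, HRC and ATP2A2 were highest in replicate 3, which had the lowest cardiomyocyte marker sum. On day 11 PLN was at 182, 289 and 174 and on day 20 at 1871, 2063 and 447 TPM, with no overlap between days 4, 11 and 20. The rise from day 4 was 8.15 on day 11 (SE 0.41, edgeR adjusted p = 3.91e-06) and 10.72 on day 20 (SE 0.85, adjusted p = 0.000516; 10.56 and 0.000298 without day 20 replicate 2). The day 9 call against day 4 (3.69, SE 1.27, adjusted p = 0.044) rested on replicate 2: without it the value was 0.91 with an adjusted p of 0.195, and the call was also lost without day 9 replicate 3 (0.0565) and without any single day 4 replicate (0.0905 to 0.134). The steps from day 9 to day 11 (4.48, SE 1.10, adjusted p = 0.0939) and from day 11 to day 20 (2.58, SE 0.54, adjusted p = 0.0618; 2.43 and 0.0888 without day 20 replicate 2) missed the threshold. The first of them passed without day 9 replicate 2 (7.28, adjusted p = 0.00323) and the second without day 20 replicate 3 (2.96, adjusted p = 0.0251).

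The pump and its inhibitor are set side by side here by the 250 bases upstream of their RefSeq starts, since ATP2A2 passed in no comparison and PLN had the largest fold change. All 10 genes matched the RefSeq promoter table (build GRCh38.p14), with 13 starts among them. Each window was searched on both strands for a GATA motif (AGATAA or TGATAA), which 14.6% of 34943 promoters hold, for the MEF2 consensus, which 2.81% hold, and for the CArG box, which 1.16% hold and none of the 13 windows did. In the PLN window (chr6:118548046-118548295, plus strand) the capitals mark 2 GATA matches, which begin 207 and 108 bases before the start, the farther on the other strand. In the window of the farther upstream of the ATP2A2 starts (chr12:110280366-110280615, plus strand) they mark 2 overlapping MEF2 matches, beginning 64 and 61 bases before it.
PLN: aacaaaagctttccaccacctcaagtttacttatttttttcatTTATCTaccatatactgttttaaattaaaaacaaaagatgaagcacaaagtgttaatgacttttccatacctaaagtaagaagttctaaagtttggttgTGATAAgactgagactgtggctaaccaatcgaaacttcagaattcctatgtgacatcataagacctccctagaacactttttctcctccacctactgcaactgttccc
ATP2A2: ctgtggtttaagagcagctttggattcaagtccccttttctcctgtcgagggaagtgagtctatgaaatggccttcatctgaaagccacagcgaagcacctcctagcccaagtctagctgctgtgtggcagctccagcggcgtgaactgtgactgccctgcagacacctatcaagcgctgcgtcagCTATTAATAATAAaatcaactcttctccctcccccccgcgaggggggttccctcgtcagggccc
These matches describe the letters of the windows and say nothing of binding. Of the other 8 genes, SLC8A1 alone held a GATA match and CASQ2 a MEF2 match.

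PLN overtook the pump between days 9 and 20. The ratio of PLN to ATP2A2 was 0.0201, 0.35 and 0.00999 on day 9, 1.34, 0.774 and 1.3 on day 11, and 3.2, 4.27 and 3.32 on day 20. The 3 days did not overlap, and the day 20 libraries lay close together although replicate 3 had a PLN level of 447 TPM against 1871 in replicate 1. The geometric mean was 26.8-fold higher on day 11 than on day 9 (log2 difference 4.75, SE 1.59, 6.29 without day 9 replicate 2 and 3.72 without day 9 replicate 3) and 3.22-fold higher on day 20 than on day 11 (1.69, SE 0.29; 1.56 without day 20 replicate 2). Both steps had an exact permutation p of 0.1, the smallest possible, and an adjusted p of 0.2.

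S100A1, a calcium sensor that binds both the ryanodine receptor and the pump (ENSG00000160678, chr1:153627926-153632039, plus strand), was low throughout. It ranged from 0.58 to 2.28 TPM over days 0 to 11 and was at 0.585, 4.96 and 1.04 on day 20, the high value again in replicate 2, with 59 reads. No comparison passed: its log2 fold change from day 4 was 0.71 on day 9 (SE 0.35, edgeR adjusted p = 0.121), 0.09 on day 11 (SE 0.46, adjusted p = 0.895) and 0.67 on day 20 (SE 0.75, adjusted p = 0.544), the last -0.46 without replicate 2 (adjusted p = 0.497). Antisense genes cover up to 10.6% of its exon bases, and at 11 to 59 reads per library a change within these errors was not detectable.

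SLC8A1, the cardiac sodium-calcium exchanger NCX1 (ENSG00000183023, chr2:40097270-40611053, minus strand), carries calcium out of the cell and was the only one of the 10 that passed between days 9 and 11. The study placed it among the signature genes it chose on these same libraries, so this call is not independent evidence. It was at 2.0, 2.01 and 1.94 TPM on day 0 and at 1.9, 2.4 and 2.95 on day 4. The values of day 9 (1.05, 2.2 and 1.44) and day 11 (48.1, 158 and 34.4) did not overlap. Against day 4, day 9 differed by -0.62 (SE 0.25, edgeR adjusted p = 0.0681), and by -0.85 without day 9 replicate 2 (adjusted p = 0.0142). On day 20 it reached 245, 338 and 61.4 TPM, which overlapped day 11, and the step from day 11 was 1.23 (SE 0.71, adjusted p = 0.445; 0.94 and 0.57 without day 20 replicate 2). Against day 4 the exchanger was higher by 5.00 on day 11 (SE 0.65, adjusted p = 0.00084) and by 6.19 on day 20 (SE 0.64, adjusted p = 0.000993; 5.92 and 0.000647 without day 20 replicate 2), and both calls held in all 15 alternative fits. The call between days 9 and 11 (5.63, SE 0.67, adjusted p = 0.0155) was lost without day 9 replicate 1 (5.45, adjusted p = 0.108) or without day 9 replicate 3 (5.58, adjusted p = 0.0916), and in both cases the estimate hardly moved. The antisense gene SLC8A1-AS1 covers 9.2% of its exon bases.

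The window upstream of the farthest of the 3 RefSeq starts of SLC8A1 (chr2:40512436-40512685, minus strand, GRCh38.p14) is shown here. This gene was taken because its step from day 9 to day 11 passed in edgeR (log2 fold change 5.63, adjusted p = 0.0155). The capitals mark the 2 GATA matches of the window, beginning 181 and 70 bases before the start. The windows of the other 2 starts held no match to any of the 3 motifs.
SLC8A1: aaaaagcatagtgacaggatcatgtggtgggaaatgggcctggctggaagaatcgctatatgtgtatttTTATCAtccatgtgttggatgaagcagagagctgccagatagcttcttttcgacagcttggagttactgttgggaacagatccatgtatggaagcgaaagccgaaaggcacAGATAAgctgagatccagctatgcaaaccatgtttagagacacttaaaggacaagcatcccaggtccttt

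The exchanger relative to the pump, SLC8A1 to ATP2A2, separated days 9 and 11 but not days 11 and 20. Other extrusion genes are not part of this ratio. The plasma membrane calcium pumps ATP2B1 and ATP2B4 averaged 134 and 153 TPM on day 9 and 160 and 150 TPM on day 11. The ratio of SLC8A1 to ATP2A2 was 0.0153, 0.0298 and 0.0123 on day 9, 0.354, 0.425 and 0.259 on day 11 and 0.419, 0.699 and 0.456 on day 20. Day 11 was 19.1-fold higher than day 9 (log2 difference 4.26, SE 0.44), with no overlap and the smallest possible exact permutation p of 0.1 (adjusted 0.2). Day 20 was 1.51-fold higher than day 11 with overlapping groups (0.59, SE 0.31; 0.37 without day 20 replicate 2; exact permutation p = 0.2, adjusted 0.333). For the store buffer relative to the channel, CASQ2 to RYR2 was 3.59-fold lower on day 11 than on day 9 (log2 difference -1.85, SE 0.46, exact permutation p = 0.1, adjusted 0.2), although the CASQ2 side of this ratio rested on 3 to 14 reads per library. From day 11 to day 20 the same ratio differed by 0.10 (SE 0.93, exact permutation p = 1.0, adjusted 1.0) and by -0.64 without day 20 replicate 2.

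**Figure D4:**
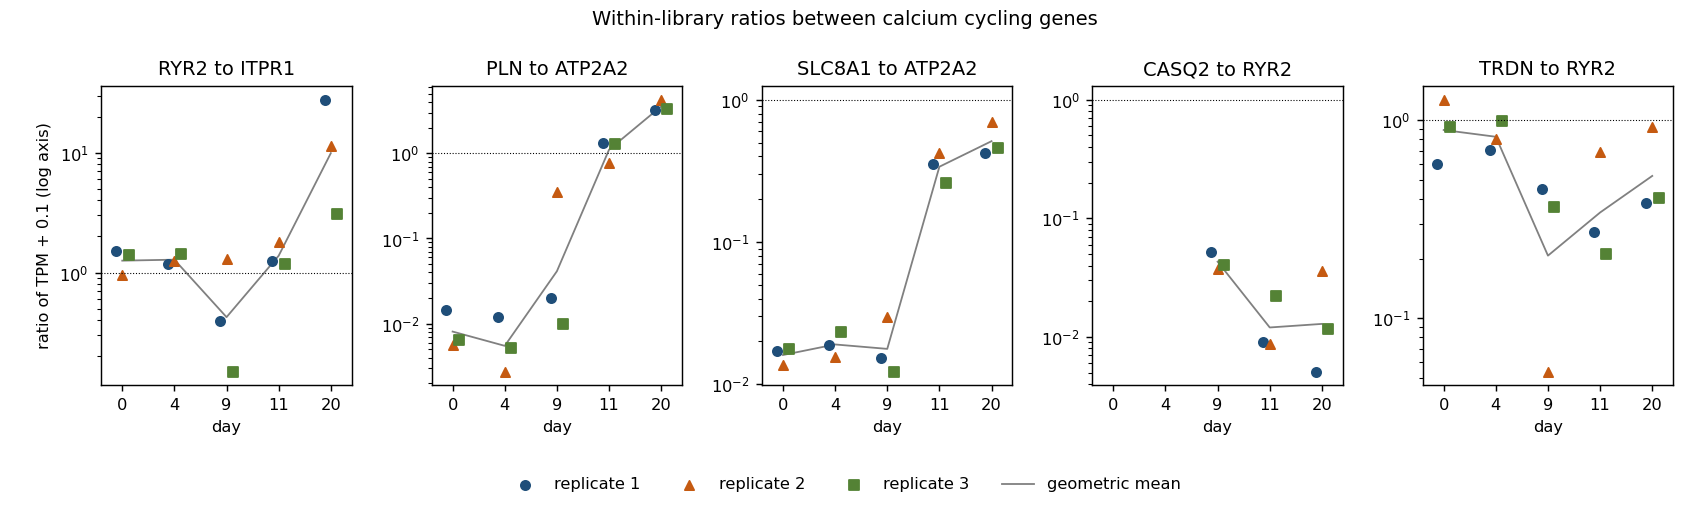
Ratios between pairs of calcium cycling genes within each library, computed from TPM + 0.1 and drawn on log axes with a scale of their own in each panel; symbols are replicates, grey lines join geometric means and the dotted line is a ratio of 1. CASQ2 to RYR2 is drawn from day 9 only, since CASQ2 had no read before. PLN to ATP2A2 was 0.0412 on day 9, 1.11 on day 11 and 3.56 on day 20, while SLC8A1 to ATP2A2 was 0.0177, 0.339 and 0.511.

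In length-corrected levels the order of the 10 genes differed between days 9, 11 and 20. On day 9 the highest mean TPM were those of ATP2A2 (92.6 ± 28.1, SD, n = 3), HRC (41.5 ± 32.1), JPH2 (30.9 ± 9.1) and ITPR1 (25.0 ± 13.6), and the ranges of each neighbouring pair overlapped. On day 11 PLN (215 ± 64.1), ATP2A2 (214 ± 138) and HRC (181 ± 191) led with overlapping ranges. On day 20 PLN had a mean of 1460 ± 882 TPM, ahead of HRC (438 ± 291), ATP2A2 (401 ± 236), RYR2 (228 ± 129) and SLC8A1 (215 ± 141). In every day 20 library PLN was the highest of the 10, whereas the ranges of the 4 genes that followed overlapped. Without day 20 replicate 2 the means were 1159 for PLN, 418 for HRC, 360.0 for ATP2A2, 192 for RYR2 and 153 for SLC8A1, in the same order.

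On days 11 and 20 the 10 genes tended to be high or low in the same library. On day 11, 9 of the 10 were highest in replicate 2 and 9 were lowest in replicate 3, and on day 20, 8 were lowest in replicate 3. On day 4 the 3 replicates held the highest value of 3, 2 and 5 genes and the lowest of 7, 1 and 2. Both day 4 counts of replicate 1 include CASQ2, which was tied at no read in all 3 replicates. Low values thus also gathered in 1 library on day 4, and on day 0 replicate 3 held the lowest value of 6 genes. On day 9 the highest values were at 1, 6 and 3 genes and the lowest at 3, 3 and 4. The cardiomyocyte marker sum was 29461 TPM in day 11 replicate 2 against 9496 and 7732 in replicates 1 and 3, and 8590 in day 20 replicate 3 against 32770 and 36496. Day 20 replicate 3 also had the highest sum of 8 fibroblast and mesenchyme markers (24486 TPM against 3211 and 1219) and of 8 endoderm and liver markers (20317 against 17356 and 673). The part of these differences in the results was not tested. Each gene was also set against the mean log2 level of 4 sarcomere genes of the same library, TNNT2, ACTN2, TTN and MYBPC3. These 4 did not change alike, so they are no measure of the muscle share of the dish. From day 11 to day 20 their mean TPM went from 511 to 978 for TNNT2, 181 to 666 for ACTN2, 162 to 667 for TTN and 179 to 807 for MYBPC3.

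Relative to these sarcomere genes, RYR2 was at -1.33, -1.92 and -1.44 on day 11 and at -1.71, -1.78 and -1.53 on day 20 on the log2 scale, and SLC8A1 was at -1.45, -1.46 and -1.69 against -2.03, -1.60 and -1.88. The days overlapped for both, with differences of -0.11 (SE 0.20, -0.06 without day 20 replicate 2, exact permutation p = 0.7, adjusted 0.778) and -0.30 (SE 0.15, -0.42, exact permutation p = 0.2, adjusted 0.4). HRC, TRDN, CASQ2 and S100A1 overlapped as well, with differences of -0.23, 0.51, -0.01 and -1.29 (-0.08, 0.15, -0.70 and -1.76 without day 20 replicate 2) and an exact permutation p of 0.4 to 1.0. The S100A1 difference was -0.33 without day 20 replicate 1. In 4 genes the days did not overlap. ITPR1 was lower on day 20 by 7.75-fold (-2.95, SE 1.05; -2.80 without day 20 replicate 2, -2.20 without replicate 1 and -3.87 without replicate 3), JPH2 by 3.27-fold (-1.71, SE 0.38; -1.43) and ATP2A2 by 1.86-fold (-0.90, SE 0.18; -0.79), whereas PLN was higher by 1.73-fold (0.79, SE 0.39; 0.77). Each had an exact permutation p of 0.1, the smallest that this design allows, and an adjusted p of 0.25 over the 10 genes. With TNNT2 alone as the reference the ATP2A2 difference shrank to -0.08 and the JPH2 difference to -0.89, and those of RYR2, CASQ2, HRC and SLC8A1 turned positive.

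**Figure D5:**
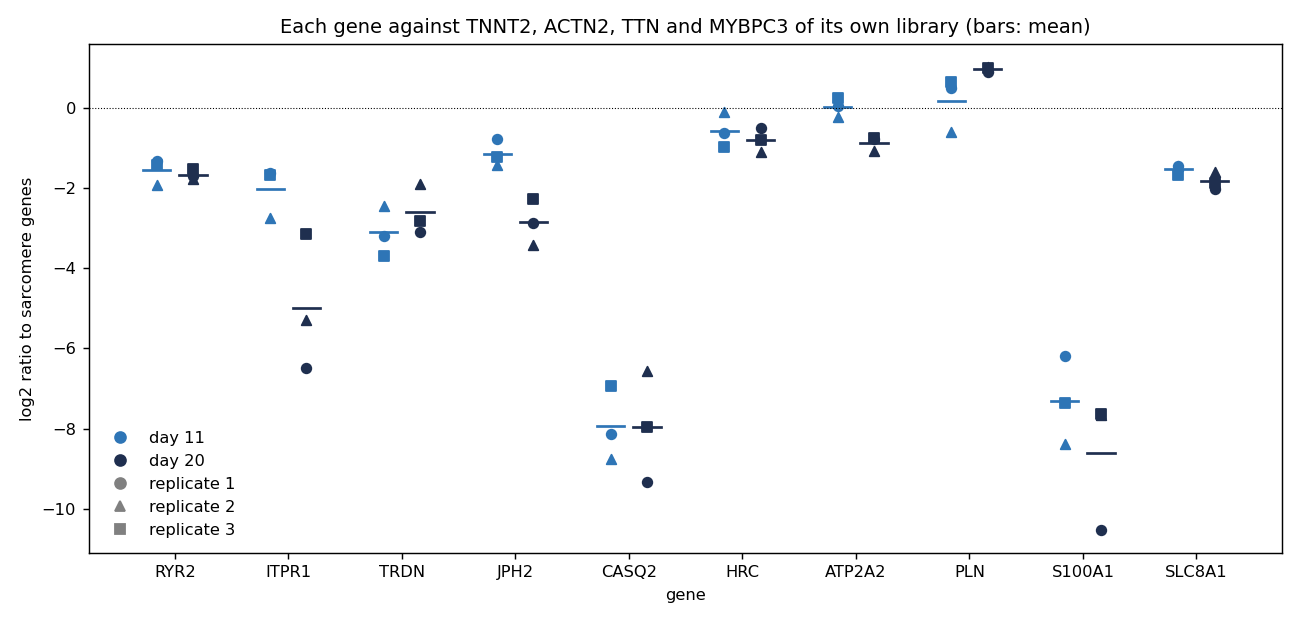
Log2 ratio of each gene to the mean of 4 sarcomere genes (TNNT2, ACTN2, TTN and MYBPC3) of its own library on days 11 and 20, from TPM + 0.1; symbols are replicates and bars the mean of 3. ITPR1, JPH2 and ATP2A2 lay lower and PLN higher on day 20 without overlap, while RYR2 kept within -1.92 to -1.33 in all 6 libraries.

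The wider calcium genes were described from 6 lists of 57 genes, of which 51 to 53 were expressed enough to be tested. From day 4 to day 9, 12 of 51 rose and 18 fell, beside 24.3% and 24.7% of all genes. Without day 4 replicate 1 it was 6 and 19, beside 20.3% and 21.2% of all genes. Leaving out day 4 replicate 2 gave 8 and 17, beside 18.6% and 19.7%. The falls took in paralogs of the 10 genes: the skeletal ryanodine receptor RYR1 (-3.17, SE 0.28, edgeR adjusted p = 7.74e-05), the pump ATP2A3 (-3.96, SE 0.34, adjusted p = 8.82e-05), the exchanger SLC8A2 (-1.67, SE 0.35, adjusted p = 0.00545) and JPH1 (-1.04, SE 0.23, adjusted p = 0.00601). ITPR2 and ITPR3 fell as well, by 1.83 and 0.73 on the log2 scale, in the same step in which ITPR1 rose. The rises took in the plasma membrane calcium pump ATP2B1 (1.51, SE 0.24, edgeR adjusted p = 0.00116), while 4 of the 8 genes on the extrusion list fell. CAMK2D (2.96, SE 0.18, adjusted p = 8.47e-06) and BIN1 (2.00, SE 0.14, adjusted p = 1.97e-05) also rose. The median of the 57-gene lists was -0.25 against 0.35 for the 10 genes and 0.01 for all genes.

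From day 9 to day 11, 3 of 52 listed genes rose and none fell in edgeR, beside 1.39% and 1% of all genes. They were SRL, the store protein sarcalumenin (5.27, SE 0.59, adjusted p = 0.0147), CACNA1C, the pore of the L-type channel (2.16, SE 0.42, adjusted p = 0.0488), and PPP1R3A, a muscle subunit of protein phosphatase 1 (6.99, SE 1.07, adjusted p = 0.0264). SRL went from 0.71, 0.385 and 0.498 TPM on day 9 to 11.4, 38.9 and 14.4 on day 11, and CACNA1C from 1.49, 3.45 and 1.44 to 7.22, 15.1 and 6.98. CACNA1C had already risen from day 4 to day 9 (0.84, SE 0.30, adjusted p = 0.0478, 0.41 and 0.102 without day 9 replicate 2). All 3 calls between days 9 and 11 were lost without day 9 replicate 1 or without day 9 replicate 3, where 0 of 53 listed genes passed. Of all genes, 0% passed without day 9 replicate 1. Without day 9 replicate 3, 0.0933% rose and 0.0793% fell, so these losses are not particular to the 3 genes. From day 11 to day 20 JPH1 was the only one of 53 to rise, beside 1.12% of all genes (1.86, SE 0.30, adjusted p = 0.0309; 1.98 and 0.0256 without day 20 replicate 2), from 10.5, 14.7 and 11.4 TPM to 59.9, 48.4 and 36.0, and none fell. Its call was lost without any single day 11 replicate (adjusted p of 0.116 to 0.226) and without day 20 replicate 1 (0.0527). Of all genes, 0% passed without day 11 replicate 1 or 3, and 0% rose and 0.00428% fell without day 11 replicate 2. The losses without a day 11 replicate are thus not particular to JPH1. Without day 20 replicate 1, 0.333% of all genes rose and 0.0788% fell.

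By day 20, 17 of 53 listed genes were higher and 9 lower than on day 4, beside 17.6% and 13.3% of all genes. Without day 20 replicate 2 the counts were 22 and 15, beside 24.5% and 23.2%. Without any single day 4 replicate 10 were higher and 3 to 6 lower, beside 6.8% to 7.82% and 5.44% to 6.23% of all genes. In the junction and store list 6 of 12 were higher, CASQ1, JPH1, SRL, the potassium channel subunit TMEM38A, ASPH, whose gene also encodes junctin, and BIN1, which shapes the membrane tubules, and CALR, JPH3 and JPH4 were lower. In the release list 2 of 12 were higher, the kinases CAMK2D and PRKACA, and ITPR3 and SRI were lower, and the ryanodine receptor stabiliser FKBP1B gave -0.40 (SE 0.38, adjusted p = 0.469). In the extrusion list the plasma membrane pumps ATP2B2 and ATP2B4 were higher and SLC8A2 and SLC8B1 lower, of 8 tested. In the uptake list, of 6 tested, SLN, PPP1R1A and PPP1R3A were higher and ATP2A3 was lower. SLN, sarcolipin, the small pump inhibitor of atrial and slow skeletal muscle, was at 20.1, 12.9 and 222 TPM on day 20 and highest in the library with the lowest PLN. Of the remaining lists, CACNA1C, CACNB2, ORAI3 and the mitochondrial SMDT1 were higher and CACNA2D1 lower.

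Over the 15 libraries, which fall into 5 days and so move together with differentiation, the protein-coding genes most like RYR2 in log2(TPM + 0.1) among 15267 compared were SLC8A1 and FBH1 (Pearson r = 0.977 each), ACTN2 and MYO18B (0.976) and KCNH7 (0.975). Those most like SLC8A1 were MYO18B (0.995), FSD2 (0.991), PPP1R3A (0.985), PPARGC1A (0.982) and CCDC69 (0.98). Among those most like ATP2A2 were MACF1 (0.945), OGDH (0.938), XPR1 (0.937) and SLC20A2 (0.931), none of which was named for RYR2 or SLC8A1. Among the 10 genes themselves RYR2 and SLC8A1 were the closest pair, the closest to ITPR1 was JPH2 (0.81), and S100A1 reached no more than 0.3 with any of them. These coefficients describe the 15 libraries and carry no test.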

How the data were processed

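Bulk RNA-seq of H1 cells on days 0, 4, 9, 11 and 20, with 3 replicates per day, was analysed, and the single-cell, qPCR, immunoblot and pig data of the study were not analysed here. Paired-end reads were mapped by the authors with STAR 2.5.2b to GRCh38 (Ensembl 79), and the authors dropped ribosomal and mitochondrial genes and deposited raw gene counts from featureCounts 1.5.1 (versions per the labels). The authors computed the deposited TPM from these counts with a gene length that is not given in the sources used here. The deposited sample table holds RNA integrity as a score and the uniquely mapped reads as a fraction. The 10 genes and all lists were chosen with earlier results of these data known.

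Counts were tested by the two-sided robust quasi-likelihood test of edgeR 4.0.16 (R 4.3.3) after filterByExpr (minimum count 10, minimum total 15) and TMM scaling. A fit used the 6 libraries of both compared days and no covariate, and p-values were adjusted over all tested genes (Benjamini-Hochberg). The SE is the log2 fold change divided by the square root of F. Ratios within a library used TPM + 0.1 and an exact two-sided permutation test (scipy 1.17.1, Python 3.11.15). Symbols and coordinates came from GENCODE v44, which held 46872 of the 48777 identifiers. Library totals (11990302 to 33469703) and the spread between replicates set the precision; the p-values speak for cultures of this line only, and bounds cover counting error only. Named genes were the 10, the called or preset genes of the wider lists, and the 5 closest by Pearson r to RYR2, ATP2A2 and SLC8A1 among protein-coding genes with a mean of at least 1 TPM, of which 1 is not reported here. CAMK2D, PRKACA, BIN1, PPP1R3A, JPH3, JPH4 and the other list genes outside that preset were named because they passed, that is, after their values were seen. ERLN, ALN and MYLPF were not matched and are not reported here. Alternatives were DESeq2 1.42.0, limma 3.58.1 on log2 TPM, other scaling, filter, pseudocount and denominator, all 15 libraries in 1 fit, plate and lane blocks, and each replicate left out. The edgeR, DESeq2 and limma steps were tested on simulated data.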

Additional observations from a re-analysis of the deposited data

How the results depend on the processing

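Of 835 alternative fits of a log2 fold change of the 10 genes, 749 kept both the direction and the side of the threshold, 38 lost and 22 gained a call and 26 changed direction. JPH2 from day 4 to day 9, and JPH2, PLN, SLC8A1 and RYR2 from day 4 to days 11 and 20, stayed past the threshold in all 15 alternatives each. Of the ratios between genes, 65 of 70 alternatives kept the direction, of the ratios to sarcomere genes 62 of 70, and of the shares of the highest day mean 124 of 150 moved by less than the spread between replicates.

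The number of the 10 genes called from day 9 to day 11 was 1, and it was 5 with DESeq2, 4 with all 15 libraries in 1 fit, 2 with the sequencing lane as a block, 0 without a filter on low counts (1016 genes in all, 4801 at an unadjusted p under 0.05) and 0 to 3 when 1 replicate was left out. From day 11 to day 20 it was 0, and 2 with DESeq2, 1 with all 15 libraries in 1 fit and 0 to 1 when 1 replicate was left out. Over all genes the count from day 9 to day 11 was 495, and 1595 with DESeq2, 186 and 226 with limma after adding 1 or 0.1 TPM and 0 to 573 when 1 replicate was left out. That from day 11 to day 20 was 332, and 2045 with DESeq2, 3132 with all 15 libraries in 1 fit, 215 and 198 with limma, 137 with the lane block and 0 to 510 when 1 replicate was left out. From day 4 to day 20 it was 6789, and 10265 with all 15 libraries in 1 fit and 3027 to 10635 when 1 replicate was left out of the fit of both days. From day 4 to day 9 it was 10406, and 6209 with all 15 libraries in 1 fit. Without a filter 64 genes passed from day 0 to day 4.

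Whether the plate numbers in the sample names pair the samples was not settled. Over 13 pairs of libraries of the same plate the correlation of deviations from the day means ran from -0.192 to 0.395, over 0.1 in 6. The 3 pairs of plate 6 gave 0.39, 0.19 and 0.395, the 9 of plate 2 -0.192 to 0.243, and the 1 of plate 5 gave 0.078. With the plate as a replicate block, 1 of the 10 genes passed from day 4 to day 9 (1397 genes in all), 0 from day 9 to day 11 (3 in all), 1 from day 11 to day 20 (512 in all), 7 from day 4 to day 11 (3630 in all) and 7 from day 4 to day 20 (4815 in all). Under that block the values that crossed the threshold were TRDN at -1.02 (adjusted p = 0.343), ITPR1 at 1.15 (0.206) and PLN at 5.02 (0.123) from day 4 to day 9, SLC8A1 at 4.72 (0.111) from day 9 to day 11, TRDN at 2.45 (0.0467) from day 11 to day 20 and 1.88 (0.0425) from day 4 to day 11, and ITPR1 at 1.20 (0.0963) from day 4 to day 20. SLC8A1 from day 4 to day 9 was 0.20 and JPH2 from day 11 to day 20 was 0.079. Neither the plate nor the lane block was fitted for day 4 against day 0.

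Of the changes of direction, those from day 0 to day 4 were small: limma gave 0.018 and 0.020 for RYR2 and 0.003 and 0.002 for ATP2A2, and leaving out 1 replicate gave -0.203 to 0.050 for RYR2, -0.221 to 0.066 for ATP2A2 and -0.427 to 0.053 for TRDN. From day 4 to day 9 RYR2 was -0.097 and -0.12 with limma, -0.103 with the lane block and -0.561 to 0.361 when 1 replicate was left out, and HRC was -0.429 to 0.813. From day 11 to day 20 JPH2 was 0.018 and 0.019 with limma and -0.708 to 0.406 when 1 replicate was left out. S100A1 ran from -0.504 to 1.002 in that step, from -0.283 to 0.395 from day 4 to day 11 and from -0.456 to 1.035 from day 4 to day 20. CASQ2 to RYR2 from day 11 to day 20 was -0.451 with 1 TPM added and -0.643 to 0.772 when 1 replicate was left out, and TRDN to RYR2 from day 9 to day 11 was -0.250 to 1.283. With TNNT2 alone as the denominator the day 20 against day 11 difference was 0.708 for RYR2, 0.808 for CASQ2, 0.590 for HRC and 0.515 for SLC8A1, and against all 4 sarcomere genes it was, when 1 replicate was left out, -0.289 to 0.008 for RYR2, -0.701 to 0.682 for CASQ2 and -0.427 to 0.0 for HRC. The cause was not tested for any of these. The wider calcium lists with 1 replicate left out were counted as an alternative chosen after seeing the data. Depth limits CASQ2 and S100A1, with at most 116 and 59 reads in a library, and 3 libraries a day limit the rest.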
